A study of Solea senegalensis with 30 samples.

Results

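The 2 arms of the microRNA (miRNA) miR-223, miR-223-3p and miR-223-5p, were described in the blood plasma of 30 Senegalese sole (Solea senegalensis). The members were all entries of the count file named miR-223, with either arm. They comprised 2 of 172 miRNA names and 31 of 2129 isomiRs, an isomiR being one distinct read sequence counted under a miRNA name. Of the 31 isomiRs, 23 belonged to miR-223-3p and 8 to miR-223-5p. The fish were captive-bred (G1) breeders, injected once in the muscle with the kisspeptin decapeptide KISS2-10 at 250 µg/kg (16 fish) or, as controls, with phosphate buffered saline (14 fish, called untreated in the labels). Kisspeptin is a neuropeptide that acts upstream of the pituitary gonadotropins. The study asked whether its injection changes circulating miRNAs. The groups were 5 kisspeptin females and 5 control females sampled at 2 d after injection, 6 kisspeptin males and 4 control males at 2 d, and 5 kisspeptin males and 5 control males at 4 d. Each library was made from 1 fish. Fish of 2 d and of 4 d came from different tanks, with 1 tank for each treatment and day, so neither the treatment nor the day can be told apart from the tank, and the tests measure only the spread between fish.

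A miRNA is cut from a hairpin precursor, whose 2 arms each give a short RNA, named 3p or 5p after its place in the hairpin. Usually one arm is loaded into the silencing complex and accumulates, and bases 2 to 8 of the loaded RNA, the seed, select the target mRNAs. In mammals miR-223 is a miRNA of the myeloid lineage, abundant in neutrophils and monocytes, where it restrains neutrophil maturation and inflammatory signalling, and it is also carried in plasma outside cells. In zebrafish it is likewise known from neutrophils. The myeloid origin is background: whole plasma RNA was sequenced here, and less RNA from a cell type and less RNA per cell cannot be told apart in it.

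The read totals were low. A library held between 25468 and 191846 counts, with a median of 60539, over the names between miR-122-3p and miR-459. The counts used here hold only these names, so no other miRNA name could be analysed. Levels in cpm are the counts of a miRNA per 1000000 counts of these names. A count of 0 in a library allows a level of up to 15.6 to 118 cpm, taken as 3 counts of its total. Such limits, and the intervals given for single fish, cover counting error only. Labels name the fish but not the sequencing run of each library, so no comparison within runs was made.

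The reads of miR-223-3p were staggered versions of one sequence. The isomiRs printed here hold most of the counts of each arm and show where its reads begin and end, with the seed of each read in capitals. The first 2 of miR-223-3p each held at least 5% of the arm, and the next 3 were chosen after their counts were seen, because they shift one end by 1 or 2 bases.
miR-223-3p, full-length, 22 nt: tGTCAGTTtgtcaaatacccca
miR-223-3p, 1 base shorter at the 3′ end, 21 nt: tGTCAGTTtgtcaaatacccc
miR-223-3p, start 1 base later, 21 nt: gTCAGTTTgtcaaatacccca
miR-223-3p, start 2 bases later, 20 nt: tCAGTTTGtcaaatacccca
miR-223-3p, 1 base longer at the 3′ end, 23 nt: tGTCAGTTtgtcaaataccccaa
"Full-length" here names the most abundant isomiR, which also gives the reference point for starts and ends. A read that starts later presents another seed, so the first 2 isomiRs and the 23-nt one share the seed GTCAGTT, while the isomiRs that start 1 and 2 bases later have TCAGTTT and CAGTTTG. The most abundant isomiRs of the 171 other names were searched for bases 2 to 8 of the most abundant read of each arm. These are GTCAGTT for 3p and GCTGAGT for 5p, and none of the names had either (0 for each arm). The stretch TGTATTT of the 5p reads from the start of the arm was not searched. Reads of miR-223 were held by 0 isomiRs of other names.

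The reads of miR-223-5p were shorter than those of the other arm. Their most abundant isomiRs are printed with the only 27-nt read, which covers the start of the arm. Capitals again mark bases 2 to 8 of each read, and in the shorter reads these lie further into the arm.
miR-223-5p, most abundant, 16 nt: aGCTGAGTtggacact
miR-223-5p, 1 base longer at the 3′ end, 17 nt: aGCTGAGTtggacactc
miR-223-5p, start 1 base later, 15 nt: gCTGAGTTggacact
miR-223-5p, start 12 bases earlier, 27 nt: gTGTATTTgacaagctgagttggacac
The isomiRs of each arm were joined by their exact overlaps into one run that holds all of them, of 25 bases for 3p and 29 bases for 5p. In the joined runs the capitals mark the longest stretch of one arm that is the exact reverse complement of a stretch of the other, as in the paired stem of a hairpin.
miR-223-3p, joined reads: gtgtcagtTTGTCAAATACcccaag
miR-223-5p, joined reads: gtGTATTTGACAAgctgagttggacactc
The stretch is 11 bases long and begins at base 9 of the 3p run and base 3 of the 5p run. Most 5p reads began at its last base. No genome of the species was used, so no genomic position is given.

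The 3p arm was by far the more abundant. It held 20318 counts over the 30 libraries, 0.850% of all counts, and ranked 19 of the 172 names by summed counts. The 5p arm held 88 counts, 0.00368% of all counts, at rank 104. Of the counts of both arms, 99.6% came from 3p. It was counted in all 30 libraries, with 2 to 2684 counts and a median of 340.5, whereas 5p was counted in 6 libraries and at 0 in 24.

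Within miR-223-3p, one isomiR dominated. The full-length isomiR held 15608 counts, 76.8% of the arm, and the isomiR 1 base shorter held 1739 counts, 8.56%. Next came the isomiR starting 1 base later with 744 counts (3.66%), the one starting 2 bases later with 640 counts (3.15%) and the 23-nt isomiR with 625 counts (3.08%). No other isomiR of the arm reached 2% of its counts, and 2 were counted in a single library each.

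Most reads of miR-223-3p shared the 5′ end, which sets the seed. Of the 3p counts, 90.1% started where the full-length isomiR starts, 4.97% started 1 base later, 3.69% 2 bases later and 0.60% 3 bases later, and 0.689% started 1 base earlier. At the 3′ end, 84.3% of the counts ended with the full-length isomiR, 9.62% ended 1 base earlier and 4.19% 1 base later. These shares rest on the full-length isomiR. Among the remaining 3p counts, 57.1% kept its start, 21.4% started 1 base later and 15.9% 2 bases later.

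**Figure D1:**
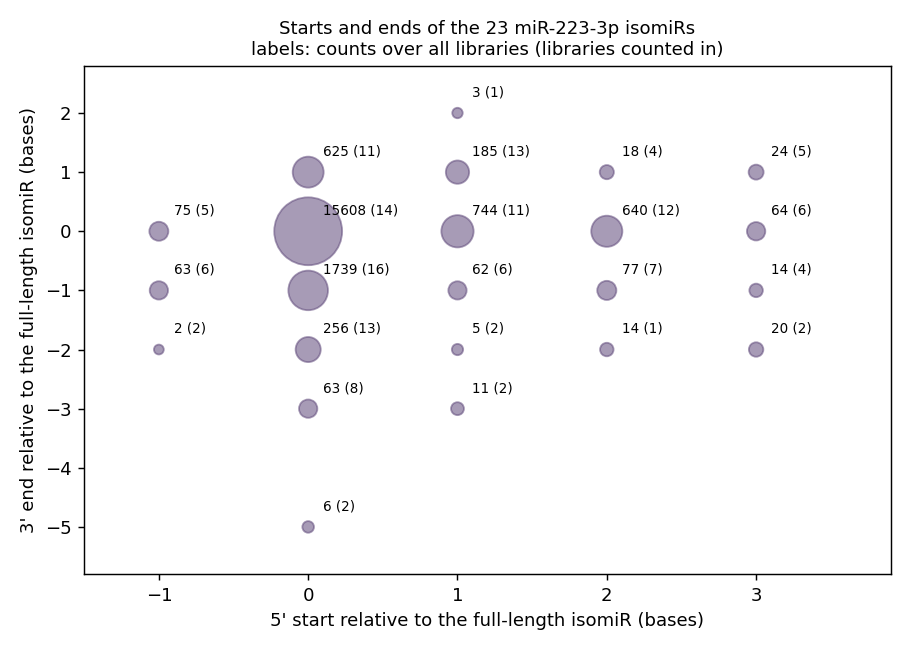
Starts and ends of the 23 isomiRs of miR-223-3p. The x axis gives the 5′ start and the y axis the 3′ end, in bases relative to the full-length isomiR, point area grows with the counts, and the labels give the counts over the 30 libraries with the number of libraries in brackets. The full-length isomiR at the origin has 15608 counts in 14 libraries, and the isomiR 1 base shorter has 1739 counts in 16 libraries.

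The full-length isomiR was either abundant or at 0 in a library. It was counted in 14 libraries and at 0 in 16. Where it was counted, it had 322 to 2482 counts, or 8283 to 21674 cpm with a median of 13143 cpm, a 2.62-fold range, and no library held it at an intermediate level. In those libraries it made up 72.7% of the 3p counts (95% exact binomial interval 68.3% to 76.8%, control male A2-14) to 96.3% (94.8% to 97.6%, kisspeptin female A1-1). The level of the whole arm includes this isomiR and therefore follows the split in part by construction. It was 9672 to 23888 cpm in the 14 libraries with the full-length isomiR and 40.3 to 4782 cpm in the other 16, without overlap. Without the full-length isomiR, the remaining 3p reads had 587 to 6440 cpm (median 1776 cpm) in those 14 libraries and 40.3 to 4782 cpm (median 1276 cpm) in the other 16, and these ranges overlapped.

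The isomiR 1 base shorter did not come and go with the full-length isomiR. Both were counted in 8 libraries, where the shorter one had 6.65% to 13.7% of the full-length count (median 9.82%). In 6 libraries with 474 to 2482 counts of the full-length isomiR the shorter one was at 0, although the lowest of those percentages would give 31.5 to 165 counts there. In 8 libraries the shorter one had 44 to 388 counts and the full-length isomiR was at 0. Neither was counted in the last 8. With 388 counts the highest shorter isomiR was in a control male of 4 d, A3-9, without a single count of the full-length one. Zeros of this kind were not particular to miR-223. Of 111 isomiRs of all names with a median of at least 100 counts where counted, 67 (60.4%) were at 0 in at least 10 libraries, and 36 were counted in every library. The cause of the zeros was not tested, and a level of miR-223-3p in a library is therefore the sum of the isomiRs listed there.

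**Figure D2:**
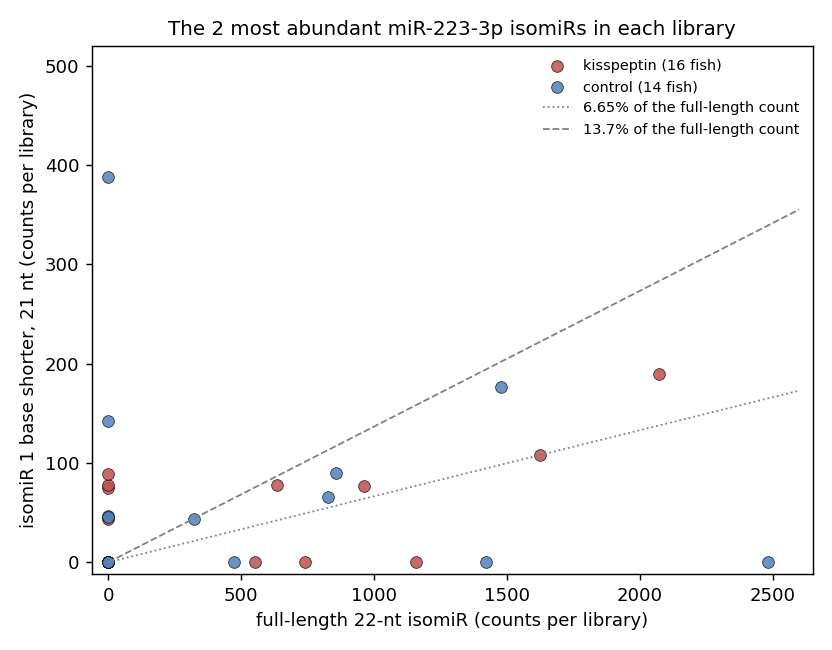
Counts per library of the full-length isomiR of miR-223-3p (x axis) and of the isomiR 1 base shorter (y axis), with 1 point per fish in red for kisspeptin and blue for control. The lines mark 6.65% and 13.7% of the full-length count, the range over the 8 libraries that hold both isomiRs. Points on an axis away from the origin are libraries with one of them at 0. The 8 libraries with neither isomiR lie at the origin.

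The libraries with the full-length isomiR were spread over all groups. It was counted in 3 of 5 kisspeptin females and 2 of 5 control females at 2 d, in 3 of 6 kisspeptin males and 3 of 4 control males at 2 d, and in 1 of 5 kisspeptin males and 2 of 5 control males at 4 d. Fisher's exact test gave two-sided p = 1 in females, 0.571 in males at 2 d and 1 in males at 4 d. No difference between kisspeptin and control fish in this split passed the test. At 4 d so few fish had the full-length isomiR that this test could not pass there, whatever their groups.

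In females at 2 d, the level of miR-223-3p was 16071, 19753, 1816, 725 and 23206 cpm in the kisspeptin fish A1-1, A1-2, A1-3, A1-4 and A1-11-9. It was 13990, 1454, 12641, 2504 and 189 cpm in the control fish A2-2, A2-5, A2-7, A2-9 and A2-10. The groups overlapped, with 3 high kisspeptin fish and 2 high controls, each of them a fish with the full-length isomiR. On the log2 scale (log2 cpm after TMM scaling, prior count 1), kisspeptin females averaged 12.60 ± 2.15 and control females 11.60 ± 2.83 (SD, n = 5 each). The difference of 1.00 was smaller than either SD (exact permutation, two-sided p = 0.579, adjusted p = 0.846 over 9 comparisons).

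In males at 2 d, miR-223-3p stood at 20450, 1138, 2455, 15966, 1242 and 15737 cpm in the kisspeptin fish A1-6, A1-7, A1-10, A1-12, A1-13 and A1-11-12. The control fish A2-11, A2-12, A2-14 and A2-16 had 2496, 14581, 14807 and 12563 cpm. Kisspeptin males lay both above and below all controls. Their mean log2 level was 12.32 ± 2.16 (n = 6), against 12.88 ± 1.37 in control males (n = 4), a difference of -0.56 (exact permutation p = 0.710, adjusted p = 0.846).

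In males at 4 d, the kisspeptin fish A4-3, A4-8, A4-9, A4-10 and A4-17 had 9672, 388, 1259, 40.3 and 1293 cpm. The control fish A3-2, A3-5, A3-6, A3-9 and A3-11 had 23888, 20173, 819, 4782 and 2966 cpm. Kisspeptin males were mostly low, and A4-10 had only 2 counts of miR-223-3p in a library of 49651. Below every control lay 3 of the 5 kisspeptin males on the TMM-scaled log2 scale and 2 of 5 in unscaled cpm. The means were 9.61 ± 2.74 in kisspeptin males and 12.54 ± 1.96 in control males (n = 5 each). The difference of -2.93 did not pass the test (exact permutation p = 0.0873, adjusted p = 0.429), and the smallest p that 5 fish against 5 allow is 0.00794.

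**Figure D3:**
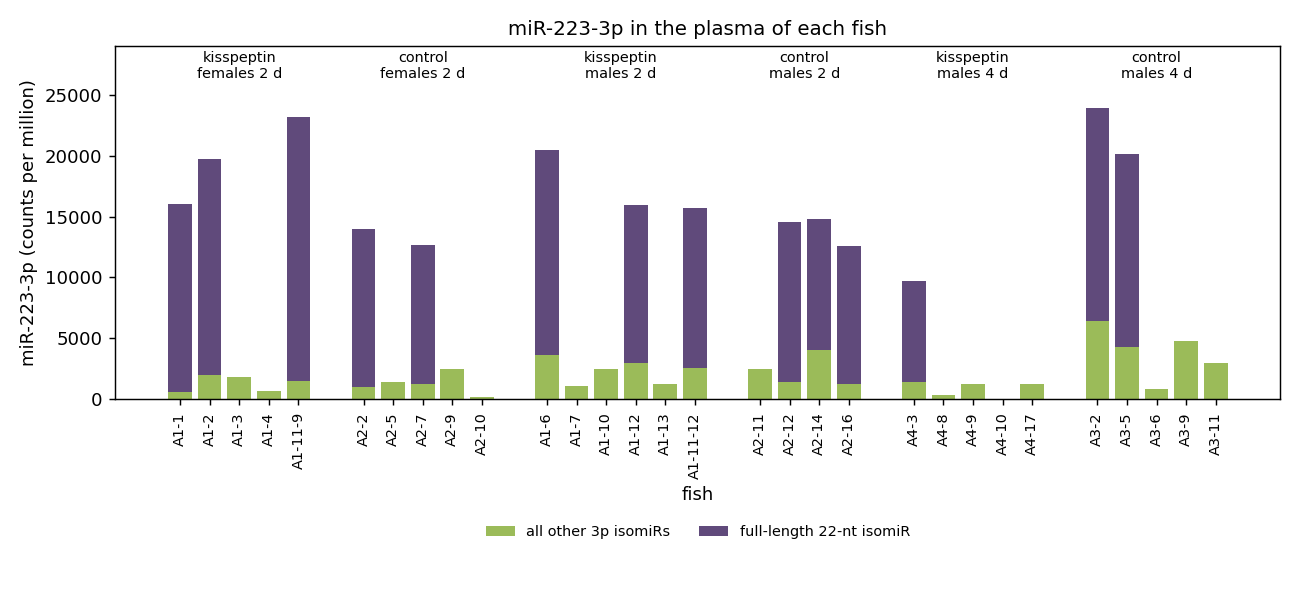
Level of miR-223-3p in each fish in cpm (y axis), stacked as the full-length isomiR (purple) and all other isomiRs (green), with the fish on the x axis by group. The 14 fish with a purple bar have 9672 to 23888 cpm of miR-223-3p and the other 16 have 40.3 to 4782 cpm.

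Among kisspeptin males, the mean log2 level at 4 d minus that at 2 d was -2.71 (exact permutation p = 0.0952, adjusted p = 0.429), and among control males the difference between the days was -0.33 (p = 0.770, exact). The difference between the kisspeptin effects of the 2 days was -2.38 (100000 permutations of treatment within day, p = 0.265, adjusted p = 0.795). When single fish were left out, the difference of -2.71 ranged from -3.63 to -1.74 and that of -2.38 from -3.30 to -1.41, with the value nearest 0 without A4-10 in both. At 2 d the level in males minus that in females was -0.28 among kisspeptin fish and 1.28 among control fish (exact permutation p = 0.846 and 0.50). No comparison of the level of miR-223-3p between sexes, days or treatments passed its test.

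The same comparisons were run on the sum of all 3p isomiRs without the full-length one, an alternative chosen after the data were seen. In females the kisspeptin fish averaged 10.21 ± 0.78 and the controls 10.19 ± 1.70 on the log2 scale (difference 0.02, exact permutation p = 0.976). In males at 2 d the values were 11.07 ± 0.90 in kisspeptin fish and 10.75 ± 0.71 in controls (difference 0.32, exact permutation p = 0.567). In males at 4 d they were 9.05 ± 1.97 in kisspeptin fish and 11.72 ± 1.04 in controls, a difference of -2.67 with exact permutation p = 0.0238, and 0.0779 when adjusted over the 9 comparisons. Here too, 3 of the 5 kisspeptin males lay below every control on this scale. Leaving out each of the 10 fish in turn gave differences of -3.05 to -1.84, with exact permutation p of 0.0159 to 0.0556. The value nearest 0, -1.84, was that without A4-10. Between the days, this sum differed by -2.02 among kisspeptin males (exact permutation p = 0.0260, adjusted p = 0.0779), and by -1.19 without A4-10 (exact permutation p = 0.0762, adjusted p = 0.229). The kisspeptin effect at 4 d minus that at 2 d was -2.98 (100000 permutations, p = 0.0162, adjusted p = 0.0779), and -2.15 without A4-10. None of these passed the adjustment. The sum without the full-length isomiR still rests on isomiRs listed unevenly. At 4 d the isomiR 1 base shorter was counted in 2 kisspeptin and 4 control males, and the 23-nt isomiR in 0 and 4. The other way lay the 22-nt isomiR with start and end each 1 base later, counted in 4 and 0. The part of this listing in the differences was not tested.

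**Figure D4:**
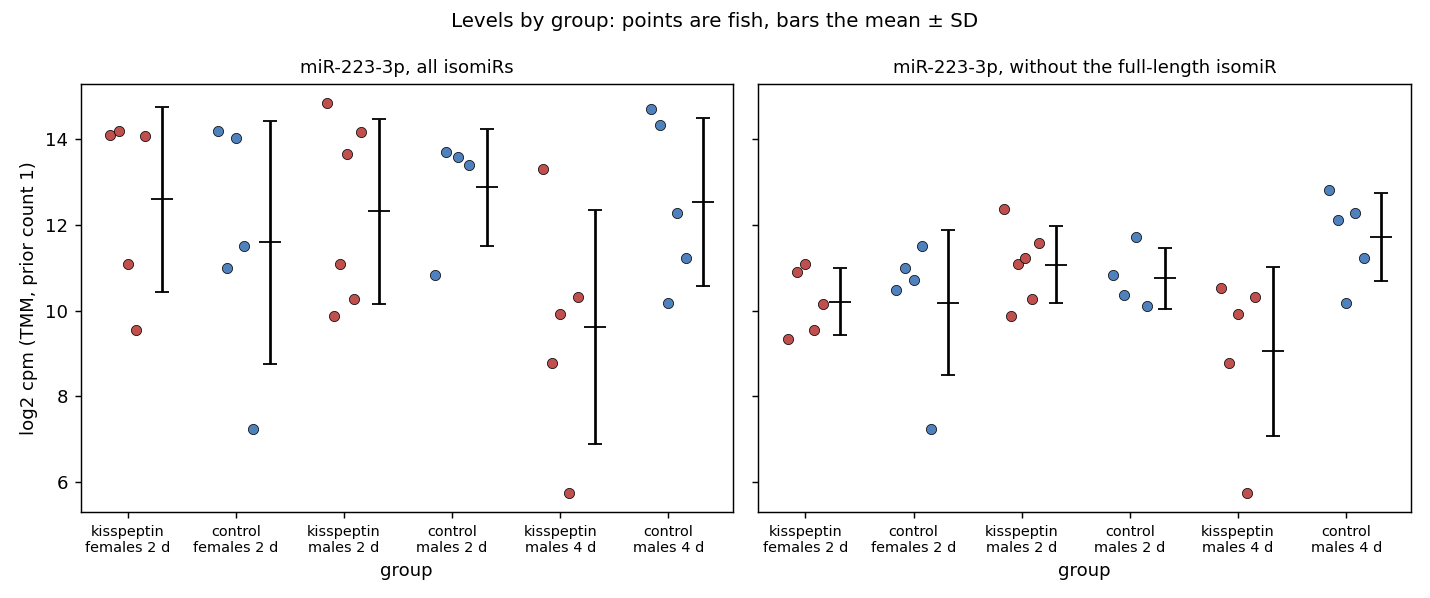
Log2 cpm of miR-223-3p (y axis; TMM, prior count 1) by group, from all isomiRs (left) and without the full-length isomiR (right), with red points for kisspeptin fish, blue points for control fish and bars for the mean ± SD. On the left the fish of most groups fall into a high and a low set, and on the right kisspeptin males of 4 d average 9.05 against 11.72 in control males.

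In the fit across all names (edgeR, quasi-likelihood test, Benjamini-Hochberg adjustment), neither arm was called in any comparison in which it was tested. For miR-223-3p these were all 9, while miR-223-5p did not pass the filter in males at 4 d. Between control males and control females of 2 d miR-223-5p was at 0 in every fish and could not be called. The difference of its kisspeptin effects between the sexes had an SE of 10269.5, so that test could not call it either. The background was as empty: 0 names of 123 passed an adjusted p of 0.05 in females at 2 d (0%), 0 of 123 in males at 2 d (0%) and 0 of 107 in males at 4 d (0%). At an unadjusted p under 0.05 there were 11, 10 and 2 names in these comparisons. DESeq2 called 1 name in males at 2 d and 0 in females and at 4 d, limma-voom called 0 in all 3, and neither tool called an arm of miR-223. In the other 6 comparisons, between sexes, days and kisspeptin effects, edgeR likewise called 0 names (0%), with 7 to 13 names at an unadjusted p under 0.05, while DESeq2 or limma-voom called 1 or 2 names in 4 of them. For miR-223-3p the fitted log2 fold change, kisspeptin over control, was 0.57 (SE 1.07, edgeR adjusted p = 0.838) in females at 2 d. It was 0.10 (SE 1.10, adjusted p = 0.935) in males at 2 d and -1.93 (SE 1.28, adjusted p = 0.942) in males at 4 d. The common dispersion, a pooled value over the names tested, corresponds to a coefficient of variation of 131% at 2 d and 132% at 4 d. It does not give the spread of each name, and the SE of the fitted change differed between names. In females at 2 d the SE was 0.35 for miR-146a and 2.32 for miR-135c, with miR-223-3p between them at 1.07.

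In the same test no single isomiR of miR-223 was called, but a 23-nt isomiR of miR-223-3p passed under 2 other tools in males at 4 d. Of the 23 isomiRs of miR-223-3p, 11 passed the filter on low counts at 2 d and 5 at 4 d, and of the 8 of miR-223-5p none did (0). With edgeR, 0 of 684 isomiRs of all names passed the threshold in females and in males at 2 d (0%) and 0 of 362 in males at 4 d (0%), with 118, 72 and 15 at an unadjusted p under 0.05. DESeq2 called 13, 13 and 2 isomiRs and limma-voom 0, 0 and 1. The 1 isomiR of limma-voom, and 1 of the 2 of DESeq2 at 4 d, was the 23-nt isomiR of miR-223-3p, and neither tool called any other isomiR of miR-223. The isomiR 1 base shorter had log2 fold changes of -0.07 (SE 2.12) in females, 0.15 (SE 2.17) in males at 2 d and -2.24 (SE 1.76) in males at 4 d. The female value rests on A2-9, the only control female in which this isomiR was counted. Without A2-9 the controls are all at 0, and edgeR gave an unadjusted p of 0.00789 and an adjusted p of 0.283. The smallest unadjusted p of any miR-223 isomiR was that of the 23-nt isomiR in males at 4 d, which was singled out after its values were seen. It was at 0 in all 5 kisspeptin males and had 68, 81, 29, 99 and 0 counts in the control males A3-2, A3-5, A3-6, A3-9 and A3-11. It passed the filter on low counts only through those 4 controls, so a difference was needed for it to be tested. The edgeR fit over all isomiRs gave it an unadjusted p of 0.00128 and an adjusted p of 0.337, DESeq2 an adjusted p of 0.00348, limma-voom 0.0278 and edgeR without the filter 0.0225, and over all alternatives it ranged up to 0.888. Without any one of those 4 controls it no longer passed the filter. Over all groups the 23-nt isomiR was at 0 in 19 of the 30 libraries, and the part of the uneven listing of isomiRs in this difference was not tested. Among males of 2 d it had 46 counts in the kisspeptin fish A1-7 and 83 in A1-11-12, and it was at 0 in the other 4 kisspeptin fish and in all 4 controls. A second isomiR of miR-223-3p, of 22 nt with start and end each 1 base later than the full-length one, lay the other way in males at 4 d. It had 14, 0, 12, 2 and 9 counts in the kisspeptin males A4-3, A4-8, A4-9, A4-10 and A4-17 and was at 0 in all 5 controls. It passed the filter only through those 4 kisspeptin males, its unadjusted p in edgeR was 0.00844 and its adjusted p 0.599, and it too was singled out after its values were seen.

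Neither the share of the full-length isomiR nor the mean length of the 3p reads separated the groups. The mean length was 21.77 ± 0.40 nt in kisspeptin females and 21.07 ± 0.83 nt in control females (n = 5 each), a difference of 0.70 nt with the smallest p of the 18 tests on both measures (exact permutation p = 0.0873, adjusted p = 0.786). The full-length share averaged 55.9% in kisspeptin and 36.5% in control females, 41.2% in kisspeptin and 63.2% in control males at 2 d, and 21.4% in kisspeptin and 30.4% in control males at 4 d, with SDs of 41.6% to 51.1%. In a single fish the share was either 0% or at least 72.7%. A4-10 was left out of the shares and of the arm ratio, for which a minimum of 10 counts was set.

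The 5p arm was seen in few fish. It had 35 counts in the kisspeptin male A1-10, 14 in A1-11-12 and 1 in A1-6 at 2 d, and 1 in the kisspeptin female A1-2. In controls it had 36 counts in A3-9 and 1 in A3-6, both males of 4 d, and it was at 0 in the 9 control fish of 2 d and in the 5 kisspeptin males of 4 d. So 85 of the 88 counts came from 3 fish, each of them a male. In 2 of those 3 fish, A1-10 and A3-9, the full-length 3p isomiR was at 0, and in A1-11-12 it had 2072 counts.

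The reads of miR-223-5p began far into the arm. The 16-nt isomiR held 62 counts (70.5% of the arm) from 2 fish, 36 in A3-9 and 26 in A1-10, the 17-nt isomiR 10 counts and the 15-nt isomiR starting 1 base later 6 counts. Of the 5p counts, 86.4% started at the same base and 6.82% 1 base later. Only 2 counts (2.27%) started 12 bases earlier, at the first base of the joined run, and 6 of the 8 isomiRs were counted in a single library each. With so few counts, isomiR shares of miR-223-5p were not compared between groups.

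At 2 d the 5p arm was counted in 3 of 6 kisspeptin males and 0 of 4 control males (Fisher's exact test, two-sided p = 0.20), and in 1 of 5 kisspeptin and 0 of 5 control females (p = 1, Fisher's exact test). At 4 d the order was the reverse, with 0 of 5 kisspeptin and 2 of 5 control males (p = 0.444, Fisher's exact test). So few fish had a count in females and at 4 d that this test could give no smaller p there, whatever their groups. In the edgeR fit of 2 d miR-223-5p passed the filter only through 4 kisspeptin fish, and in that of 4 d it did not pass. In males at 2 d its unadjusted p was 0.0190 and its adjusted p 0.389. In the fit of males of both days it passed through the 3 kisspeptin males of 2 d and 2 control males of 4 d with a count. There the difference between the kisspeptin effects of the 2 days had an edgeR unadjusted p of 0.00501 and an adjusted p of 0.176. That unadjusted p was the smallest of either arm in the fits of names. As miR-223-5p was at 0 in all other males, it rests on few fish. Among the permutation tests of its log2 level in the 9 comparisons, the smallest p was 0.0750 and the smallest adjusted p 0.542. These 9 include control males against control females of 2 d, where 5p was at 0 in every fish and no difference could arise.

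The arm ratio, log2 of (3p count + 1) over (5p count + 1), ranged from 2.12 in the kisspeptin male A1-10 to 11.39 in the control female A2-2. In 23 of the 29 fish with at least 10 counts 5p was at 0, and the ratio there is set by the 3p count and the added 1. By counting error alone, a count of 0 can stand for up to 3 counts, so the ratio there could also be lower. This limit does not cover zeros like those of the abundant 3p isomiRs, whose part in the ratio was not tested. Only 3 fish had at least 10 counts of 5p. There 3p made up 81.6% of both arms in A1-10 (95% exact binomial interval 75.3% to 86.8%), 94.7% in A3-9 (92.7% to 96.2%) and 99.4% in A1-11-12 (99.1% to 99.7%). The 3 intervals did not overlap, but the 3p counts of these fish were not made up alike. The full-length 3p isomiR was at 0 in A1-10 and A3-9, and in A1-11-12 it had 2072 of 2481 counts of 3p. Without it, A1-11-12 had 409 counts of 3p beside 14 of 5p. The 5p reads of all 3 fish began further into the arm than the first base of the joined 5p run. The part of the uneven listing of isomiRs in these shares was not tested. Between groups the ratio averaged 8.39 ± 1.82 in kisspeptin and 8.22 ± 3.12 in control females, 6.64 ± 2.76 in kisspeptin and 8.59 ± 1.39 in control males at 2 d, and 7.09 ± 2.59 in kisspeptin and 7.41 ± 2.97 in control males at 4 d. Exact permutation tests gave p = 0.921, 0.248 and 0.873 for these 3 comparisons, and the smallest adjusted p of the 9 comparisons was 0.907.

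Other miRNAs of white blood cells were present in the same libraries. The list held 6 names: miR-142 and miR-142b, of the whole blood cell lineage, miR-146a and miR-146b, induced by inflammatory signals, miR-150, of mature lymphocytes, and miR-155, induced on immune activation. miR-142b, miR-146a and miR-150 were counted in all 30 libraries, miR-155 in 28, miR-142 in 27 and miR-146b in 4. Of the 6 names, 5 could be tested, and 0 were higher and 0 lower past the threshold in any of the 9 comparisons (edgeR). Their median log2 fold change, kisspeptin over control, was -0.11 in females at 2 d, beside 0.04 over all names tested. It was 0.48 in males at 2 d, beside -0.10 over all names, and 0.30 in males at 4 d, beside 0.03. Their summed level in males of 4 d was 51641 to 113358 cpm (median 80850 cpm) in kisspeptin fish and 38127 to 79671 cpm (median 68933 cpm) in controls. These ranges overlapped, and the kisspeptin median was the higher one. The sum is mostly that of miR-146a, which held 109966 counts over the 30 libraries, with miR-150 next at 13923. The marker lists of other sources held 6 names of erythrocytes, 3 of endothelium, 8 of muscle and 2 of liver. Of these 6, 3, 4 and 2 could be tested, and 0 passed the threshold in the 9 comparisons (edgeR). Erythrocyte names were the most abundant of these, with a median summed level of 251179 cpm in kisspeptin males and 230860 cpm in control males of 4 d. The part of any of these sources in the level of miR-223 was not tested.

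The levels of other names were only weakly related to that of miR-223-3p across the fish. Among the 28 names with at least 1 cpm in every library, the 5 most alike over the 30 libraries by Spearman's rho of log2 cpm were miR-126a-3p (0.24), miR-22a (0.21), miR-150 (0.19), miR-210-5p (0.19) and miR-30d (0.18). miR-126a-3p is known from endothelium, and miR-150 is on the leukocyte list. Computed without the full-length isomiR, the rho of these 5 names was 0.18, -0.04, 0.11, 0.19 and 0.18 in the same order, and the highest values were those of miR-26b (0.36) and miR-26a (0.24). Levels within a library share its total, and these values are given as a description only. The rho between the total count of a library and its cpm of miR-223-3p was -0.04.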

How the data were processed

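Per the labels and the study's methods, small RNA from plasma was sequenced per fish, Cutadapt (2.8 in the methods, 2.1 in the submitters' processing notes) removed the adapter and 4 random bases per end, and bowtie2 2.4.1 (k = 10) mapped reads to miRBase 21 hairpins. The authors deposited raw counts per isomiR, without normalization. HTSeq 0.6.0 is also named in the processing notes. Per the study's methods, a miRNA name found in several species was taken from the species in which its expression was highest. The part of this step in the zeros was not tested. How zeros arise in the deposited counts is not given in the sources used here.

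Groups came from the sample labels. The members and lists were chosen with earlier results of these data known. Counts were summed to names and tested with edgeR 4.0.16 (TMM, R 4.3.3) on names or isomiRs that reached 1 cpm in 4 or more samples. There were separate fits for the 20 fish of 2 d, the 10 males of 4 d and the 20 males of either day, with adjustment over all features tested. Single values were compared by their difference of means, in exact permutation tests that were two-sided (100000 permutations for differences of effects), adjusted over 9 comparisons. By rule, named isomiRs had at least 5% of their arm or an adjusted p under 0.05. Other isomiRs were named after their counts were seen. Alternatives were limma-voom 3.58.1, DESeq2 1.42.0, other filters, scaling and priors, and each fish left out. The edgeR script was tested on simulated data.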

Additional observations from a re-analysis of the deposited data

Results flagged for a closer look

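In groups of 4 to 6 fish, 7 values of 36 sets stood apart from the rest of their group by Dixon's 95% criterion. About 1.8 would do so by chance in independent sets of normally distributed values. These sets share fish and several hold tied values, so the 7 cannot be set against that number. The control male A2-11 had the lowest log2 cpm of miR-223-3p of its group at 2 d, 10.83, with the nearest control male at 13.40. It is the one control male of 2 d in which the full-length isomiR was at 0, and its 3p reads were also the shortest, at a mean of 20.56 nt against 21.69 nt in the nearest. The control female A2-10 had 7.23 log2 cpm of miR-223-3p without the full-length isomiR, against 10.47 in the nearest. That value rests on 10 counts. In the kisspeptin female A1-3 the mean length was 21.07 nt, with the nearest at 21.87 nt. The kisspeptin male A4-3 of 4 d had 85.6% of its 3p counts in the full-length isomiR, while the rest of its group had 0%. For miR-223-5p, the control male A3-9 stood apart at 8.20 log2 cpm (nearest 4.76), from 36 counts, and the kisspeptin female A1-2 at 4.55 (nearest 3.72), from 1 count.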

How the results depend on the processing

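Of 1300 alternative values of the 70 results on miR-223 itself, 1297 stayed on the same side of the threshold. The other 3 were the 23-nt isomiR of miR-223-3p in males at 4 d under DESeq2 (adjusted p = 0.00348), limma-voom (0.0278) and edgeR without a filter (0.0225). This isomiR was singled out after its values were seen. Under DESeq2 and limma-voom it passed the filter on low counts only through 4 control males. Without the filter it was 1 of 24 isomiRs called of 1356. None of the 70 results passed the threshold in the main analysis. Some alternatives could not pass it, such as those of miR-223-5p between control males and control females of 2 d, at 0 in every fish. The 1297 are therefore not a measure of how stable the results are. The sign of the fitted change of miR-223-3p varied at 2 d. Over the alternatives it was -0.66 to 1.00 in females and -0.62 to 0.73 in males, while in males at 4 d it was -2.31 to -1.36 and, with each fish left out, -3.89 to -1.30. Counts of calls over all names or isomiRs moved away from 0 as follows. For isomiRs, DESeq2 called 13 in females, 13 in males at 2 d and 2 in males at 4 d, limma-voom called 1 in males at 4 d, and fits without a filter called 26, 20 and 24. With each fish left out, isomiRs in males at 2 d numbered 0 to 1 (1 without kisspeptin female A1-2 or kisspeptin male A1-10). For names, DESeq2 called 1 in males at 2 d, 1 for the difference between the sexes, 1 for 4 d minus 2 d in kisspeptin males and 2 for the difference between the days. limma-voom called 1 name for the difference between the sexes, 1 for 4 d minus 2 d in kisspeptin males and 1 for males minus females in controls. With each fish left out, the difference between the days gave 0 to 1 names (1 without kisspeptin male A4-9). The causes were not tested. No paired analysis was possible because each library was made from a different fish. Limits are the low totals, the zeros of abundant isomiRs, the spread between fish and the confounding of treatment with tank.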
